A study of Bos taurus with 6 samples.

Results

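Integrins are the cell surface receptors that hold cells to the matrix, and laminins are the proteins that basement membranes are built on. The genes described here are the integrin subunits, the laminin chains and 4 basement membrane linkers (NID1, NID2, HSPG2 and AGRN), chosen by gene symbol alone from bovine endometrium data. The rule found 41 of the 34733 named genes listed: 18 integrin α subunits, 8 integrin β subunits, 11 laminin chains and the 4 linkers. None of these symbols was listed more than once.

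Side population (SP) cells, which pump out the DNA dye Hoechst, were measured by RNA sequencing in 3 libraries, and main population (MP) cells, which keep the dye, in another 3. Both came from uteri of luteal phase cows (Bos taurus) obtained at slaughterhouses, and were sorted out of collagenase digests of intercaruncular endometrium stripped of its luminal epithelium, which the labels call stromal cells. Dead cells were gated out with propidium iodide, verapamil was used to block the dye pump ABCG2 in parallel stainings, and the labels name no antibody sort. The labels do not say whether replicates are separate animals, nor give age or breed, so p-values measure the spread between these libraries, which may be technical.

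An integrin is a pair of an α and a β chain, and the pair sets the ligand: laminins, collagens, proteins with an RGD motif such as fibronectin, or receptors on other cells. A laminin is a trimer of an α, a β and a γ chain that binds integrins through its α chain and polymerises into the sheet under epithelium and endothelium and around muscle cells. Nidogens tie the laminin sheet to the collagen IV network, and the heparan sulfate proteoglycans perlecan (HSPG2) and agrin (AGRN) bind to it. In endometrium such sheets lie under the luminal and gland epithelium and around vessels, while the stroma between is rich in fibrillar collagen.

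The values are FPKM, fragments mapped to a gene scaled by transcript length and library depth, so levels of different genes can be set side by side per length. The steps between the lowest values put the depth at about 10500000 to 19500000 fragments in SP libraries and 20300000 to 33400000 in MP libraries, so values far below 1 FPKM rest on few fragments. The 12 endothelial markers examined summed to 1414 to 2150 FPKM in SP and 135 to 820 FPKM in MP, and 10 stromal fibroblast markers to 288 to 483 FPKM in SP and 2907 to 11109 FPKM in MP. The 10 epithelial markers summed to 187 to 1800 FPKM in SP and 992 to 4655 FPKM in MP, and 16 leukocyte markers to 113 to 142 FPKM in SP and 469 to 803 FPKM in MP. The pan-leukocyte marker PTPRC was at 0.0232 to 0.153 FPKM in SP and 1.28 to 5.83 FPKM in MP, so most of each leukocyte sum came from other markers. The pericyte and smooth muscle marker ACTA2 was at 84.8 to 104 FPKM in SP and 386 to 785 FPKM in MP, the fibroblast marker PDGFRA at 0.545 to 1.56 FPKM in SP and 8.18 to 24.0 FPKM in MP, and RGS5, a pericyte marker that did not pass, at 10.8 to 43.2 FPKM in SP and 23.8 to 69.4 FPKM in MP. PROX1, the defining lymphatic factor, was at 0.229 to 0.582 FPKM in SP and 0.0929 to 0.487 FPKM in MP. The 5 lymphatic endothelial markers with it summed to 84.1, 7.55 and 42.0 FPKM in SP and 26.8, 13.5 and 20.0 FPKM in MP, so the groups overlapped. The label of stromal cells thus covers libraries that also held transcripts from the endothelial, epithelial and leukocyte marker lists. Fewer cells of a type cannot be told apart from less RNA per cell.

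Of the 41 genes, 31 reached 1 FPKM in at least 3 libraries and were tested. SP was compared with MP in a limma fit across all 12127 such genes, with p-values adjusted by Benjamini-Hochberg and called under 0.05, and rose and fell below refer to that test. In SP 8 members rose (ITGA2, HSPG2, ITGA6, LAMA5, ITGB4, LAMB2, NID2 and ITGB1) and 7 fell (LAMC3, ITGB7, ITGB2, LAMA2, LAMB1, NID1 and ITGA8), while 16 did not pass. That is 48.4% of the members tested, against 39.2% of all genes tested (20.5% higher in SP and 18.7% lower), so the share is not far from the background. The groups did not overlap in 17 of the 31, or 54.8%, and in 54.8% of all genes tested. The calls and these 17 include ITGB2 and ITGB7, which were under 1 FPKM in all of SP, so the filter set their direction. The median log2 fold change was 0.40 over the 31 members and 0.01 over all genes tested. The count of members that fell was 4, 3 and 3 without SP replicate 1, MP replicate 1 and MP replicate 2. The count that rose was 5 without SP replicate 2. Calls over all genes also fell, from 4759 to 2481 and 3137 without SP replicates 1 and 2, and to 2601 and 2421 without MP replicates 1 and 2. With FPKM rescaled to a common sum per library the median of all genes moved to 0.19, 68.0% of all calls were higher in SP in place of 52.3%, and 10 members rose and 5 fell. The plot of fold changes shows 30 of the members tested.

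**Figure D1:**
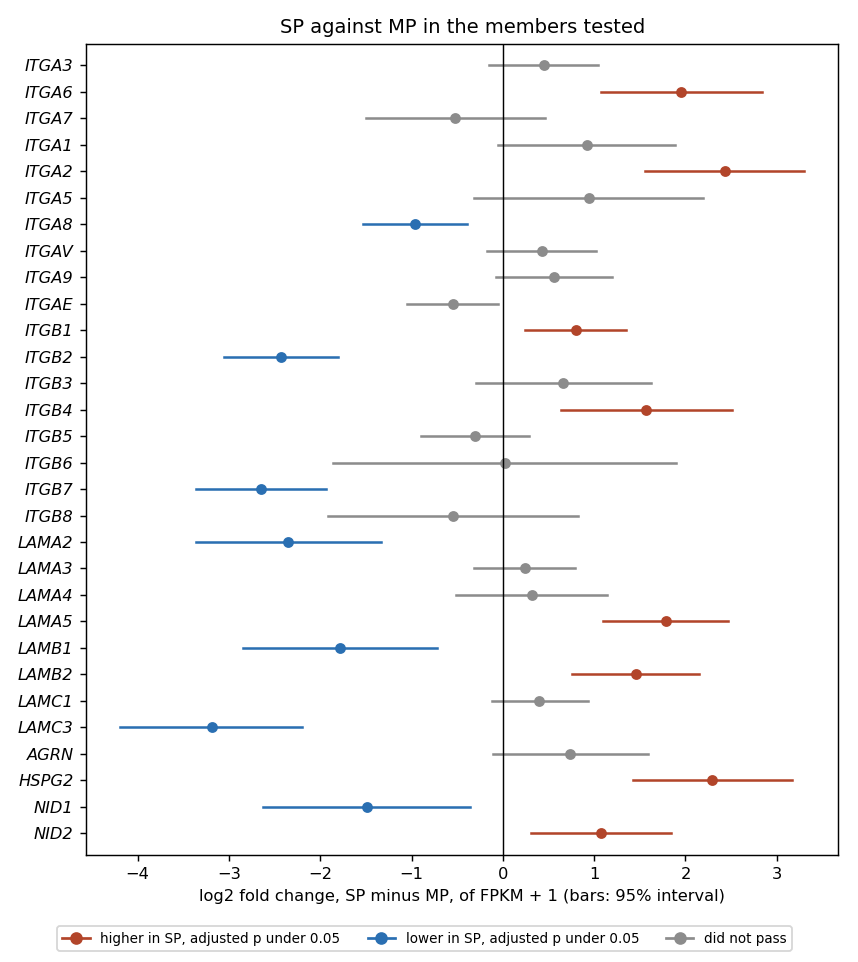
Log2 fold change of SP minus MP (x axis, on FPKM + 1) for 30 members tested, by role from integrin α subunits at the top to linkers at the bottom; points are limma estimates and bars 95% intervals (n = 3 libraries each). The 8 red members rose, the 7 blue ones fell and the 15 grey ones did not pass, and both directions occur among integrins, laminins and linkers.

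The laminin receptors of the integrin family came first. ITGA6, the α chain of the main laminin receptors of endothelium and epithelium (chromosome 2, 24091589 to 24179355 in ARS-UCD1.2) was at 74.9, 54.6 and 57.9 FPKM in replicates 1 to 3 of SP, against 8.48, 15.6 and 26.2 FPKM in those of MP. The groups did not overlap, and MP replicate 3, which had the most endothelial marker RNA of the MP libraries, was the nearest to SP. Within MP, 4 of the 8 members that rose were highest in replicate 3. The part of endothelial RNA in the ITGA6 level was not tested. The means were 62.5 ± 10.9 FPKM in SP, against 16.7 ± 8.90 FPKM in MP (SD of 3 libraries each), a log2 fold change of 1.95 (SE 0.38; adjusted p in limma = 0.00812), and ITGA6 was called in all 14 alternatives run. ITGA6 was the second most abundant member in each SP library. ITGB4, the β chain that pairs with ITGA6 alone and anchors epithelial cells through hemidesmosomes (chromosome 19, 55840150 to 55872542), was at 21.6, 35.9 and 24.8 FPKM in SP and at 4.07, 12.4 and 11 FPKM in MP. Every SP library was above every MP library. Its log2 fold change was 1.57 (SE 0.40; adjusted p in limma = 0.0199), and the call was lost without SP replicate 2 (adjusted p = 0.0641).

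The other laminin-binding α subunits did not pass. ITGA3, a receptor for the laminins of epithelia, was at 5.31, 4.44 and 6.38 FPKM in SP, against 2.66, 4.62 and 3.87 FPKM in MP. ITGA7, the laminin receptor of muscle, was at 1.84, 5.66 and 5.27 FPKM in SP, against 3.41, 7.68 and 8.13 FPKM in MP. In both genes the groups overlapped. The log2 fold change was 0.45 ± 0.26 for ITGA3 and −0.52 ± 0.42 for ITGA7 (SE; limma adjusted p = 0.193 and 0.35). ITGA6 made up 91.3%, 84.4% and 83.3% of the summed FPKM of these 3 subunits in SP and 58.3%, 55.9% and 68.5% in MP. The share of ITGA7 was lower in SP, at 6.19 ± 3.47% against 24.1 ± 3.17% in MP (SD of 3 libraries each). Such shares do not move with the scaling of a library. For both subunits the exact two-sided permutation test gave p = 0.1, the smallest that 3 against 3 libraries allow. Over the 46 shares computed none went below an adjusted p of 0.164.

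ITGB1, the common β chain that pairs with most α subunits (chromosome 13, 19970093 to 20014499), was the most abundant member in all 6 libraries. It was at 194, 256 and 180 FPKM in SP and at 113, 142 and 105 FPKM in MP. The groups did not overlap, with a log2 fold change of 0.80 (SE 0.24; adjusted p in limma = 0.0331). The call was lost without SP replicates 1 or 2 or MP replicates 1, 2 or 3 (adjusted p from 0.0563 to 0.109). ITGB1 held 72% to 78.5% of all β subunit FPKM in SP and 61.4% to 76.7% in MP. It shares its listed locus with LOC101904840, at 0.893 to 2.91 FPKM in SP and 2.98 to 6.27 FPKM in MP. The sum over the 18 α subunits was 169 ± 24.5 FPKM in SP, against 81.0 ± 16.7 FPKM in MP, and that over the 8 β subunits 278 ± 50.4 FPKM in SP, against 179 ± 35.1 FPKM in MP (SD of 3 libraries each).

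**Figure D2:**
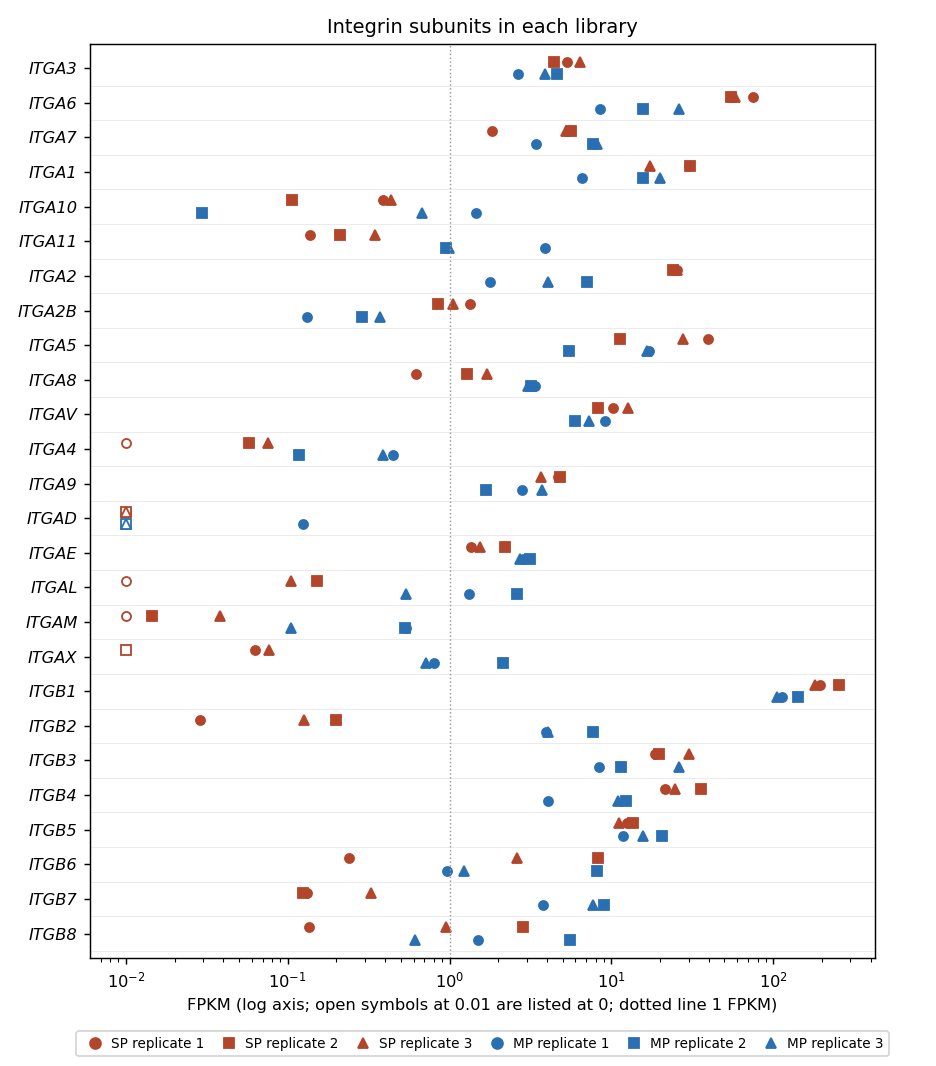
FPKM (x axis, log scale) of the 26 integrin subunits in each library; red symbols are SP and blue ones MP, shapes give the replicate, and open symbols at the left edge are listed at 0. ITGA6, ITGA2, ITGB1 and ITGB4 lie higher in all SP libraries, and ITGB2 and ITGB7 lie above 1 FPKM in MP and below it in SP.

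Of the collagen-binding α subunits, ITGA2 had the largest log2 fold change of the members that rose. ITGA2, a collagen receptor also known from platelets and epithelium (chromosome 20, 25956790 to 26081221), was at 25.4, 24.2 and 25.5 FPKM in SP, against 1.78, 7.04 and 4.06 FPKM in MP. The SP libraries were close to each other and all above the MP libraries. Its log2 fold change was 2.43 (SE 0.38; adjusted p in limma = 0.00415), and it was called in all 14 alternatives. The locus is listed as shared with MOCS2, whose level was lower in SP (7.0, 10.6 and 11.2 FPKM, against 21.0, 19.8 and 13.9 FPKM in MP), so reads of the pair may not be fully told apart.

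ITGA1, the other broadly used collagen receptor, is the next gene on chromosome 20. It was at 30.3, 30.6 and 17.3 FPKM in SP and at 6.6, 15.8 and 20.0 FPKM in MP. The groups overlapped, since SP replicate 3 lay below MP replicate 3, and it did not pass (log2 fold change 0.92 ± 0.42 SE, 95% interval −0.05 to 1.89, limma adjusted p = 0.114). It passed with FPKM rescaled to a common sum (adjusted p = 0.0383). PELO, a ribosome rescue factor listed at the same locus, was at 91.8, 58.3 and 52.3 FPKM in SP and at 7.55, 17.2 and 28.9 FPKM in MP, and how its reads bear on ITGA1 was not tested.

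ITGA10 and ITGA11, collagen receptors of cartilage and fibroblasts, were too low to be tested. ITGA11 was at 0.138, 0.212 and 0.347 FPKM in SP, below the 3.9, 0.957 and 0.986 FPKM of MP. MP replicate 1 stood out, and it was also the library with the most fibroblast marker RNA. MP replicates 2 and 3 were close in ITGA11, while their fibroblast markers summed to 5043 and 2907 FPKM. The part of fibroblast RNA in the ITGA11 values was not tested. ITGA10 was at 0.107 to 0.436 FPKM in SP and at 0.0294 to 1.46 FPKM in MP, and the groups overlapped. ITGA2 made up 49.2 ± 8.06% of the collagen-binding sum in SP and 19.4 ± 8.90% in MP, while ITGA11 made up 0.476 ± 0.286% in SP and 12.1 ± 14.1% in MP (SD of 3 libraries each; exact two-sided permutation p = 0.1 for each, the smallest possible).

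Among the α subunits that bind RGD motifs, none rose. ITGA5, the classical fibronectin receptor, was at 39.5, 11.3 and 27.7 FPKM in SP and at 17.0, 5.47 and 16.6 FPKM in MP. Replicate 2 was the lowest library of either population, and the groups overlapped. ITGA5 did not pass (log2 fold change 0.94 ± 0.54 SE, 95% interval −0.32 to 2.19, limma adjusted p = 0.198). With the replicate number as a block it was called (limma adjusted p = 0.025). Its listed locus is shared with ZNF385A, at 0.56 to 2.28 FPKM in SP and 8.08 to 16.3 FPKM in MP. ITGAV, which pairs with several β chains and binds vitronectin, was at 10.3, 8.26 and 12.6 FPKM in SP and at 9.20, 5.98 and 7.26 FPKM in MP and did not pass (log2 fold change 0.43 ± 0.26 SE, limma adjusted p = 0.214). ITGA8, a partner of ITGB1 in mesenchyme and smooth muscle (chromosome 13, 29995642 to 30242784), fell. It was at 0.620, 1.29 and 1.71 FPKM in SP, against 3.37, 3.21 and 3.07 FPKM in MP. The groups did not overlap and the MP libraries were nearly alike, with a log2 fold change of −0.96 (SE 0.25; adjusted p in limma = 0.0198). The call was lost in 6 of 13 alternatives, among them those without SP replicate 1 and MP replicates 1 and 2 (adjusted p = 0.0636, 0.0553 and 0.0571). In the same libraries 10 pericyte and smooth muscle markers summed to 240 to 442 FPKM in SP and 1163 to 1961 FPKM in MP, and their part in this was not tested.

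ITGA2B, the fibrinogen receptor subunit of platelets, was at 1.33, 0.85 and 1.05 FPKM in SP and at 0.132, 0.290 and 0.374 FPKM in MP. All SP values lay above the MP values, but the gene missed the filter and was not tested in the fit above. Without a filter all 41 members were tested and 8 were higher in SP. NID2 lost its call there, so another member gained a call. Of the members below the filter, ITGA2B alone had every SP value above every MP value. The 7 platelet markers examined summed to at most 0.119 FPKM in SP and 0.304 FPKM in MP, and PPBP, GP6 and GP9 were listed at 0 in all 6 libraries. ITGB3, the β chain of that receptor and of the endothelial vitronectin receptor, was at 18.5, 19.6 and 30.1 FPKM in SP and at 8.33, 11.5 and 26.0 FPKM in MP. MP replicate 3 overlapped SP, and the gene did not pass (log2 fold change 0.66 ± 0.41 SE, limma adjusted p = 0.227), while without MP replicate 3 it was called (log2 fold change 1.1, adjusted p = 0.028). ITGB5, another partner of ITGAV, was at 12.5, 13.7 and 11.2 FPKM in SP and at 11.8, 20.7 and 15.6 FPKM in MP and did not pass (log2 fold change −0.30 ± 0.26 SE, limma adjusted p = 0.37). Its share of the β subunits was lower in every SP library, at 4.07% to 5.07% against 7.97% to 9.54% in MP.

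All leukocyte integrins but ITGAE were near 0 in SP. ITGB2, the β chain that all CD18 integrins share (chromosome 1, 144759539 to 144788839), was at 0.0287, 0.198 and 0.126 FPKM in SP, against 3.93, 7.70 and 4.08 FPKM in MP. ITGB7, the β chain of gut homing and intraepithelial lymphocytes (chromosome 5, 26796724 to 26811773), was at 0.132, 0.124 and 0.327 FPKM in SP, against 3.76, 9.0 and 7.72 FPKM in MP. Every MP library lay far above every SP library. Both fell, with log2 fold changes of −2.43 and −2.65 (SE 0.27 and 0.31; adjusted p in limma = 0.00167 and 0.00191). Being under 1 FPKM in all of SP, they could enter the test only because all MP libraries reached that level, so the filter set their direction in advance. On the log2(FPKM + 0.1) scale the changes were −4.63 and −4.53.

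The α partners of ITGB2 missed the filter. ITGAL, the lymphocyte α chain that binds ICAM1, was listed at 0, 0.151 and 0.105 FPKM in SP and at 1.32, 2.63 and 0.540 FPKM in MP. ITGAX, found on dendritic cells, was at 0.0624, 0 and 0.0772 FPKM in SP and at 0.803, 2.14 and 0.716 FPKM in MP. ITGAM, found on myeloid cells, was at 0, 0.0145 and 0.0381 FPKM in SP and at 0.539, 0.532 and 0.105 FPKM in MP. In each of the 3 genes all MP values lay above the SP values, but none passed the filter. ITGAD was listed at 0 in all libraries but MP replicate 1, at 0.124 FPKM.

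ITGAE, the partner of ITGB7 on lymphocytes that bind E-cadherin, was at 1.35, 2.21 and 1.55 FPKM in SP and at 2.86, 3.16 and 2.74 FPKM in MP. The groups did not overlap, but ITGAE did not pass (log2 fold change −0.55 ± 0.22 SE, 95% interval −1.05 to −0.05, limma adjusted p = 0.0779). HASPIN, a kinase gene listed at the same locus, was at 1.36 to 2.86 FPKM in SP and 0.190 to 1.21 FPKM in MP. ITGA4, the other partner of ITGB7, was low in every library, at 0 to 0.0754 FPKM in SP and 0.118 to 0.448 FPKM in MP. ITGB7 thus stood above the level of either partner in each MP library. ITGA9, the relative of ITGA4 that is used in lymphatic valves, was at 4.69, 4.79 and 3.65 FPKM in SP and at 2.79, 1.67 and 3.75 FPKM in MP, overlapped and did not pass (log2 fold change 0.56 ± 0.27 SE, limma adjusted p = 0.136). The 7 leukocyte integrins (5 α chains, ITGB2 and ITGB7) summed to 1.58, 2.70 and 2.22 FPKM in SP, against 13.3, 25.2 and 15.9 FPKM in MP. The pan-leukocyte marker PTPRC was at 0.0370, 0.0232 and 0.153 FPKM in SP, against 2.01, 5.83 and 1.28 FPKM in MP, and its part in these values was not tested.

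Laminin α chains and laminin β chains each held a member that rose and a member that fell. Among the α chains, LAMA5, a chain of mature vascular and epithelial basement membranes (chromosome 13, 54887634 to 54939286), was at 8.21, 7.07 and 4.85 FPKM in SP, against 0.868, 0.863 and 2.05 FPKM in MP. LAMA2, the chain of muscle and mesenchymal basement membranes (chromosome 9, 66989322 to 67689094), was at 0.581, 1.03 and 1.68 FPKM in SP, against 18.1, 9.32 and 4.79 FPKM in MP. Neither gene had overlapping groups. The log2 fold change was 1.79 for LAMA5 and −2.35 for LAMA2 (SE 0.29 and 0.44; adjusted p in limma = 0.00505 and 0.00698), and both were called in all their alternatives, 13 and 14. In MP the libraries ranked by LAMA2 as by the summed fibroblast markers (11109, 5043 and 2907 FPKM in MP replicates 1 to 3). Of the other members that fell, NID1 and ITGA8 had the same order. LAMC3 and LAMB1 were also highest in MP replicate 1 but had replicate 3 above replicate 2, and ITGB2 and ITGB7 were highest in MP replicate 2. DCN, a fibroblast marker, was at 141, 126 and 194 FPKM in SP, against 6200, 3815 and 1635 FPKM in MP. The part of fibroblast RNA in the LAMA2 difference was not tested.

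LAMA4, the α chain of endothelial and other mesenchymal basement membranes (chromosome 9, 38176082 to 38331079), was the most abundant α chain in 4 of the 6 libraries and did not part the populations. It was at 24.4, 10.7 and 12.3 FPKM in SP and at 13.4, 8.28 and 14.4 FPKM in MP. SP replicate 1 was the highest, and the other SP libraries lay within the range of MP (log2 fold change 0.32 ± 0.36 SE, 95% interval −0.51 to 1.14, limma adjusted p = 0.50). Its direction turned without SP replicate 1, to −0.03. LAMA3, the α chain of epithelial laminin, was at 1.81, 2.95 and 2.67 FPKM in SP and at 1.48, 2.40 and 1.97 FPKM in MP and did not pass (log2 fold change 0.24 ± 0.24 SE, limma adjusted p = 0.45). LAMA1, a chain of embryonic basement membranes, was at most 0.0415 FPKM in any library. The summed α chains were at 26.1 ± 7.72 FPKM in SP, against 26.0 ± 6.89 FPKM in MP (SD of 3 libraries each).

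Of the β chains LAMB2, known from vessels and synapses (chromosome 22, 50883580 to 50897890), was at 41.8, 44.0 and 24.5 FPKM in SP, against 12.6, 9.64 and 15.5 FPKM in MP. LAMB1, the widely expressed β chain (chromosome 4, 48985684 to 49062382), was at 2.45, 3.74 and 5.80 FPKM in SP, against 32.0, 9.57 and 12.0 FPKM in MP. Again the groups of each gene lay apart, in opposite directions. LAMB2 rose by 1.46 on the log2 scale (SE 0.30; adjusted p in limma = 0.00977) and LAMB1 had a log2 fold change of −1.78 (SE 0.46; adjusted p in limma = 0.0205). The call of LAMB1 was lost without SP replicate 1 (adjusted p = 0.0696) and without SP replicate 2 (0.0545). LAMB3, the epithelial β chain, was at 0.284 to 1.42 FPKM in SP and 0.284 to 1.38 FPKM in MP and was not tested.

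Of the γ chains LAMC3 (chromosome 11, 101225330 to 101292992), a γ chain of narrower distribution than LAMC1, had the largest fold difference of the members tested on the log2(FPKM + 1) scale, while with + 0.1 ITGB2 and ITGB7 went past it. It was at 1.46, 0.756 and 2.68 FPKM in SP, against 39.4, 13.4 and 20.0 FPKM in MP. The lowest MP library lay well above the highest SP library, with a log2 fold change of −3.19 (SE 0.43; adjusted p in limma = 0.00283), and it was called in all 14 alternatives. LAMC1, the γ chain of most laminins (chromosome 16, 64062643 to 64183739), was at 28.2, 21.9 and 25.9 FPKM in SP and at 21.3, 15.7 and 19.9 FPKM in MP. All SP values lay just above the MP values, but the gene did not pass (log2 fold change 0.40 ± 0.23 SE, 95% interval −0.12 to 0.93, limma adjusted p = 0.188).

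The make-up of the chain classes was set apart by population. LAMA5 held 23.4%, 32.5% and 22.5% of α chain FPKM in SP, against 2.56%, 4.13% and 8.83% in MP, and LAMA2 held 1.66%, 4.74% and 7.79% in SP, against 53.6%, 44.6% and 20.6% in MP. LAMB2 held 87.4 ± 8.89% of the β chain sum in SP and 43.4 ± 14.3% in MP (SD of 3 libraries each). MP libraries carried LAMC3 at a level of the order of LAMC1. The ratio of LAMC1 to LAMC3 was 19.3, 29.0 and 9.68 in SP, against 0.542, 1.17 and 0.994 in MP, and that of LAMB2 to LAMB1 was 17.1, 11.8 and 4.23 in SP, against 0.393, 1.01 and 1.28 in MP. Each of these shares and ratios had an exact two-sided permutation p of 0.1, the smallest possible, and an adjusted p of 0.164 over 46 shares or 0.12 over 12 ratios.

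**Figure D3:**
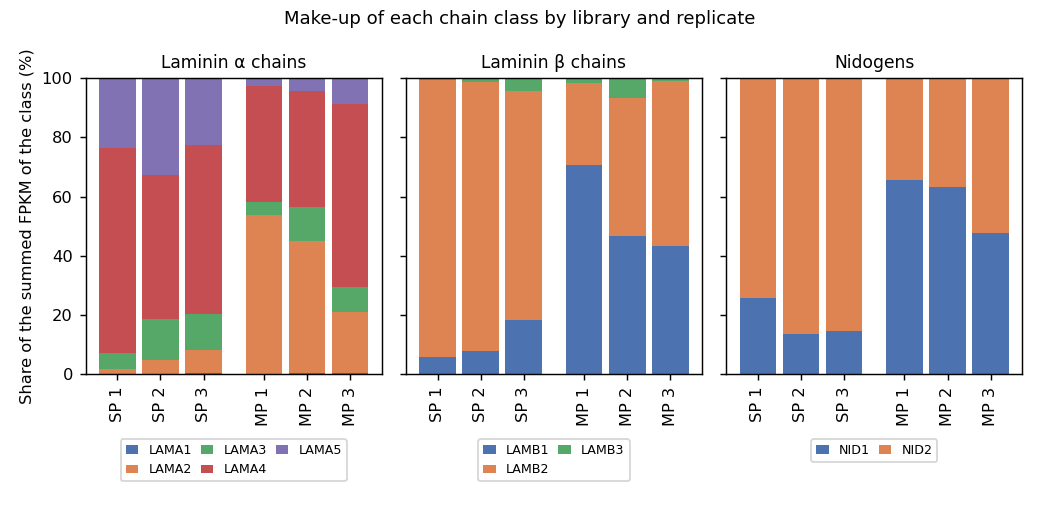
Share of each chain in the summed FPKM of its class (y axis, percent) in each library, for laminin α chains, laminin β chains and the nidogens. In SP the bars are mostly LAMA4 with LAMA5, LAMB2 and NID2, while in MP LAMA2, LAMB1 and NID1 take larger shares, least so in MP replicate 3 for LAMA2, LAMB1 and NID1.

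Of the linkers HSPG2 and NID2 rose, NID1 fell and AGRN did not pass. NID2 (chromosome 10, 44846567 to 44939145) was at 26.1, 28.7 and 27.0 FPKM in SP, against 20.6, 8.0 and 11.3 FPKM in MP. NID1 (chromosome 28, 8687268 to 8784219) was at 8.96, 4.48 and 4.52 FPKM in SP, against 39.3, 13.8 and 10.3 FPKM in MP. Neither nidogen had overlapping groups, and MP replicate 1 was the highest MP library for each. The log2 fold change was 1.08 for NID2 and −1.49 for NID1 (SE 0.33 and 0.49; adjusted p in limma = 0.0355 and 0.0445). Both calls were near the threshold, each held in 7 of 14 alternatives, with adjusted p up to 0.104 for NID2 and 0.12 for NID1. NID1 lost its call without any 1 of the libraries but MP replicate 3, and NID2 without any 1 but MP replicate 1. The ratio of NID2 to NID1 was 2.91, 6.40 and 5.98 in SP, against 0.525, 0.582 and 1.1 in MP, and the summed nidogens were at 33.3 ± 1.77 FPKM in SP, against 34.4 ± 22.0 FPKM in MP (SD of 3 libraries each; exact two-sided permutation p of the ratio = 0.1). NID2 shares its listed locus with LOC613519, at 6.56 to 12.9 FPKM in SP and 8.80 to 13.7 FPKM in MP.

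HSPG2, which encodes perlecan (chromosome 2, 130867508 to 130986301), was at 24.4, 18.2 and 15.6 FPKM in SP, against 3.37, 1.44 and 5.42 FPKM in MP. The SP libraries were all well above the MP libraries. Its log2 fold change was 2.29 (SE 0.38; adjusted p in limma = 0.00496), and it was called in all 14 alternatives. AGRN, which encodes agrin (chromosome 16, 51422630 to 51461933), was at 14.9, 31.3 and 13.3 FPKM in SP and at 8.09, 10.0 and 14.6 FPKM in MP. MP replicate 3 lay above SP replicate 3, so the groups overlapped, and it did not pass (log2 fold change 0.74 ± 0.37 SE, limma adjusted p = 0.141). CDH5, which encodes the endothelial adhesion protein VE-cadherin, was at 177, 134 and 132 FPKM in SP, against 6.81, 18.5 and 51.1 FPKM in MP. Within MP, 4 of the 8 members that rose (ITGA6, LAMA5, LAMB2 and HSPG2) were, like CDH5, highest in replicate 3, while ITGA2, ITGB4 and ITGB1 were highest in replicate 2 and NID2 in replicate 1. The part of endothelial RNA in their rise was not tested.

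**Figure D4:**
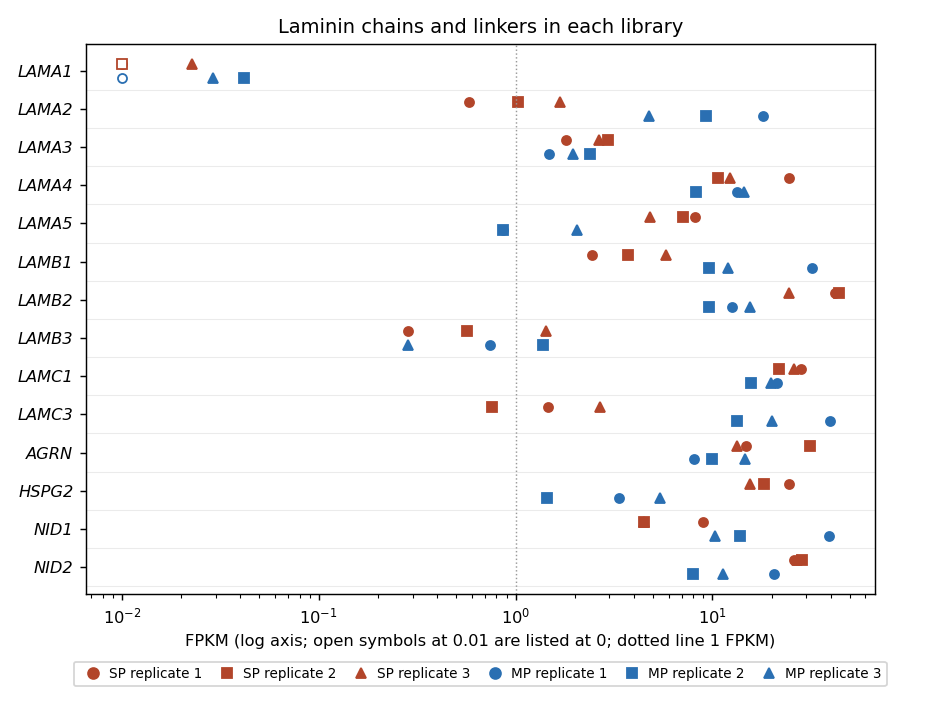
FPKM (x axis, log scale) of 10 laminin chains and 4 linkers in each library; red symbols are SP and blue ones MP, shapes give the replicate, and open symbols at the left edge are listed at 0. LAMA5, LAMB2, HSPG2 and NID2 lie higher in SP, LAMA2, LAMB1, LAMC3 and NID1 lie lower in SP, and LAMA4 overlaps.

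ITGB6 and ITGB8 varied widely within each population. ITGB6, an epithelial partner of ITGAV, was at 0.241, 8.32 and 2.63 FPKM in SP and at 0.966, 8.17 and 1.23 FPKM in MP. ITGB8, another partner of ITGAV, was at 0.135, 2.83 and 0.956 FPKM in SP and at 1.51, 5.58 and 0.609 FPKM in MP. In both of them replicate 2 was the highest library of either population, and SP and MP overlapped. LAMA3, given above, was likewise highest in replicate 2 of either population. Other members shared this, among them ITGB4 and ITGB1, which rose, and ITGB5 and ITGAE. LAMB3 and ITGA3 were highest in replicate 2 of MP but in replicate 3 of SP. ITGB6, ITGB8 and LAMA3 did not pass. The log2 fold change was 0.02 ± 0.81 for ITGB6 and −0.55 ± 0.59 for ITGB8 (SE; limma adjusted p = 0.986 and 0.48), and the 95% interval of ITGB6 ran from −1.86 to 1.90. The 10 epithelial markers summed to 187, 1800 and 965 FPKM in SP and to 992, 4655 and 1230 FPKM in MP, and EPCAM was at 30.3, 432 and 134 FPKM in SP and at 76.9, 609 and 56.6 FPKM in MP. Their part in the values of ITGB6 and ITGB8 was not tested. ITGB6 shares its listed locus with LOC781943, which was at 45.7 to 81.6 FPKM in SP and 131 to 172.5 FPKM in MP.

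**Figure D5:**
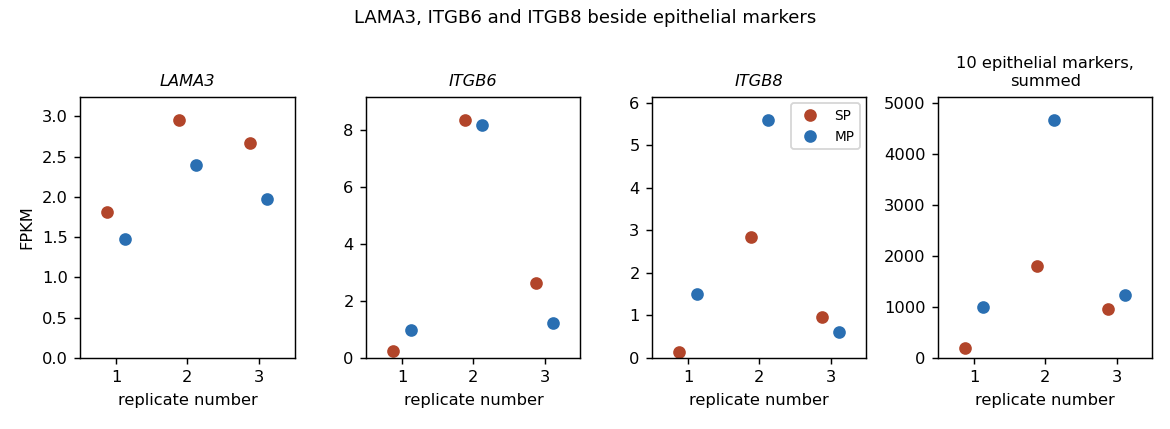
FPKM (y axis) of LAMA3, ITGB6, ITGB8 and the sum of 10 epithelial markers by replicate number (x axis), with SP red and MP blue, 1 point per library. In every panel the point of replicate 2 is the highest of its population.

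Genes that act with these members were read from lists of integrin adaptors, other laminin receptors with sarcoglycans, other basement membrane genes, integrin ligands and tetraspanins. Of 21 adaptors and activators tested, 5 rose, 4 fell and 12 did not pass, with a median log2 fold change of 0.08 against 0.01 over all genes. The share called was 42.9%, near the 39.2% of all genes. Over the alternatives 2 to 6 were higher and 1 to 4 lower, with the fewest higher without MP replicate 2. The fewest were lower without MP replicate 1 or 2, where calls over all genes also fell, to 2601 and 2421 in place of 4759. BCAR1, a scaffold of focal adhesions, was at 58.1, 35.5 and 44.6 FPKM in SP, against 5.39, 5.59 and 14.2 FPKM in MP, and rose by 2.42 on the log2 scale (SE 0.38; adjusted p in limma = 0.00438). The focal adhesion kinase PTK2, its relative PTK2B, paxillin (PXN) and the kindlin FERMT2 also rose, with log2 fold changes of 1.13, 1.62, 1.47 and 0.95, and are named here after their values were seen. PTK2 was called in all 14 alternatives, PTK2B in 10, PXN in 9 and FERMT2 in 11. The leukocyte kindlin FERMT3 and the parvin PARVG fell, at 0.482 ± 0.207 and 0.362 ± 0.229 FPKM in SP, against 2.86 ± 0.731 and 4.25 ± 2.33 FPKM in MP (SD of 3 libraries each; limma adjusted p = 0.00564 and 0.00775). Both were under 1 FPKM in all SP libraries, so the filter set their direction. TNS3, a tensin, fell (log2 fold change −1.17 ± 0.23 SE, limma adjusted p = 0.00788), as did PARVA (−0.83, called in 5 of 14 alternatives), and talin (TLN1), which links integrins to actin, was at 18.4 to 21.2 FPKM in SP and 18.8 to 19.5 FPKM in MP. PARVA and TLN1 are also named after their values were seen.

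Of 13 other basement membrane genes tested, 3 rose, 4 fell and 6 did not pass (median log2 fold change −0.26). The share called was 53.8%, against 39.2% of all genes, and the counts did not hold. None was higher without SP replicate 1, SP replicate 3 or MP replicate 2 or with no filter. Only 1 was lower without SP replicates 1 or 2 or MP replicates 1 or 3. The same held at a mean of at least 5 FPKM and with quantile normalization, where 4730 of all genes were called. With either rescaling or the replicate block 2 were lower. Calls over all genes also fell with a library left out, to 2481 without SP replicate 1 and 2421 without MP replicate 2, in place of 4759. SMOC2, a matricellular calcium-binding protein, was at 2.07, 3.31 and 7.49 FPKM in SP, against 360, 131 and 85.3 FPKM in MP, a log2 fold change of −5.05 (SE 0.57; adjusted p in limma = 0.00173). PXDN, the peroxidase that crosslinks collagen IV, rose by 1.58 on the log2 scale (SE 0.47; adjusted p in limma = 0.0318), and its call held in 9 of 14 alternatives. COL4A6 and NTN4 fell at low levels, with log2 fold changes of −0.73 and −0.65 (SE 0.19 and 0.19; adjusted p in limma = 0.0197 and 0.0327), each under 1 FPKM in all SP libraries, so that the filter set their direction. COL4A6 was called in 7 of 10 alternatives and NTN4 in 3 of 10 (adjusted p up to 0.142). The remaining calls, named after their values were seen, were the main collagen IV chains COL4A1 and COL4A2, which rose by 1.56 and 1.51 on the log2 scale (limma adjusted p = 0.0445 and 0.0472), and COL4A5, which fell, also under 1 FPKM in all of SP (−0.79, limma adjusted p = 0.0333). COL4A1 was called in 9 of 14 alternatives, COL4A2 in 7 of 14 and COL4A5 in 2 of 10.

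The other lists held few calls. The list of laminin receptors other than integrins also holds sarcoglycans of the dystroglycan complex. Of its 5 genes tested, 1 was called, or 20.0%, against 39.2% of all genes, and 4 did not pass (median −0.26). The called gene was SGCB, 1 of these sarcoglycans, which fell, at 1.09, 2.28 and 1.88 FPKM in SP against 18.3, 10.7 and 6.46 FPKM in MP. Its log2 fold change was −2.13 ± 0.37 SE (limma adjusted p = 0.00595). Over the alternatives 0 to 1 of this list were higher and 1 to 2 lower. Of 16 integrin ligands tested, THBS1 and CTGF rose, MFGE8 and NPNT fell and 12 did not pass (median 0.15). The share called was 25.0%, against 39.2% of all genes. Over the alternatives 0 to 6 were higher, with 0 without SP replicate 1 or MP replicate 1. The 6 came with FPKM rescaled to a common sum. From 0 to 3 were lower, with 0 under that rescaling and without SP replicate 1 or MP replicate 2. Without SP replicate 1, MP replicate 1 or MP replicate 2, calls over all genes also fell, to 2481, 2601 and 2421 in place of 4759. THBS1 (thrombospondin) was at 587, 589 and 386 FPKM in SP, against 118, 294 and 128 FPKM in MP (log2 fold change 1.63 ± 0.38 SE, limma adjusted p = 0.0152) and was called in 12 of 14 alternatives. MFGE8, an RGD ligand of ITGAV, was at 80.0, 96.7 and 92.8 FPKM in SP, against 144, 164 and 165 FPKM in MP (log2 fold change −0.81 ± 0.21 SE, limma adjusted p = 0.0197), and its call held in 10 of 14 alternatives (adjusted p up to 0.0851). NPNT (nephronectin), the ligand of ITGA8, was at 0.743, 3.54 and 3.99 FPKM in SP, against 5.80, 20.0 and 7.07 FPKM in MP (log2 fold change −1.62 ± 0.54 SE, limma adjusted p = 0.0464), and its call held in 3 of 14 alternatives. CTGF, a matricellular growth regulator, was at 1003 ± 328 FPKM in SP, against 517 ± 117 FPKM in MP (SD of 3 libraries each), a log2 fold change of 0.93 (SE 0.32; adjusted p in limma = 0.0487), and was called in 6 of 14. Of 6 tetraspanins, which partner integrins in the membrane, 1 was called, or 16.7%, and 5 did not pass (median 0.12). This share too was below the 39.2% of all genes. CD63 fell (log2 fold change −1.11 ± 0.26 SE, limma adjusted p = 0.0154), a call lost without MP replicate 1 (adjusted p = 0.0567). Over the alternatives 0 to 2 of this list were higher and 0 to 2 lower.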

How the data were processed

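The deposited values are FPKM per the file headers, 1 for each gene and library, and no scaling across libraries is stated. Per the submitters' processing notes, cutadapt 2.5, HISAT2 2.1.0 and the genome ARS-UCD1.2 were used. Libraries came from a stranded mRNA kit, per the labels' protocols. What computed FPKM, on which annotation and with what strand setting is not given in the sources used here. Per the file headers the MP columns alone carry the word micro, of unstated meaning, which cannot be told apart from the population. An exact 0 can be a failed estimate, so such genes are described as listed at 0.

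Sample titles gave the group and the replicate number. The 1 row without a gene name (0.185% to 1.91% of the values) was left out. Genes that reached 1 FPKM in 3 or more of the 6 libraries were tested on log2(FPKM + 1), which understates changes of low genes, with limma 3.58.1 in R 4.3.3 (eBayes with a trend, two-sided), which was tested on simulated data. Shares and ratios were tested by exact permutation. Depth was estimated from the value of 1 fragment in loci of 600 to 4000 bp. Loci are those of the files, introns included, counted from 1. Every member is named but 1, which is not reported here; of each list up to 4 called genes by smallest p. The members, lists and alternatives were chosen with earlier results of these data known. Symbols of 40 of the 41 members were found in the RefSeq table of ARS-UCD2.0, used to name chromosomes; no sequence is shown. Alternatives were another pseudocount, filters, scalings, no trend, the replicate number as a block, and each library left out.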

Additional observations from a re-analysis of the deposited data

How the results depend on the processing

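Of 401 member fold changes recomputed under 14 alternatives, 363 kept direction and side of the threshold, 29 lost the call, 3 gained 1 and 6 turned. Members that were tested only in an alternative are not among the 401. Those that turned were not called: ITGB6 (−0.19 on the log2(FPKM + 0.1) scale, and from −0.69 to 0.76 with 1 library left out, negative without SP replicates 2 or 3 or MP replicates 1 or 3) and LAMA4 (from −0.03 without SP replicate 1 to 0.53 without SP replicate 2). Members called lower in SP numbered 4 at a mean of at least 5 FPKM, where fewer genes are tested, and from 3 to 6 with 1 library left out; those called higher from 5 to 7. All genes called ranged from 2421 to 4455 with 1 library left out, and from 3332 to 4835 under the other settings. Without any filter the fit holds 20810 genes and all 41 members, of which 8 were higher and 5 lower in SP. There NID1, NID2, LAMB1 and ITGA8 lost their calls, while in each direction a member below the main filter gained a call. The cause was not tested. With 1 library left out, all 108 values of shares and 72 of ratios recomputed moved by less than the larger replicate SD. With 3 libraries per group no value could move by more, so this does not measure how stable they are.

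SP and MP share replicate numbers, and the column headers also give both the same Stroma numbers. The labels do not say what either number marks. Over 12127 genes the deviations of same-numbered libraries correlated at 0.10, 0.53 and −0.09 for numbers 1 to 3, so not every pair deviated together and the numbers were not used as pairs in the report; whether a number marks a shared source was not tested. With the number as a replicate block 9 members were higher and 7 lower in SP, among 4793 genes called; ITGA5 was then called (adjusted p = 0.025), as it was not in the fit without the block. SP replicates 1 and 3 did not correlate best with their own number. Depth is lower in SP, which limits members near 0 there, such as ITGAM, ITGAX, ITGAL and ITGA4.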

Other observations

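Some members are neighbours in the genome. ITGA2 and ITGA1 lie 20.5 kb apart on chromosome 20, with log2 fold changes of 2.43 and 0.92, of which ITGA1 did not pass. ITGAM and ITGAX lie 16.7 kb apart on chromosome 25 and ITGAX and ITGAD 32.5 kb, all of them below the filter.

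The order of levels among the members differed between the populations. After ITGB1, which ranked first everywhere, SP libraries had ITGA6 second, against LAMC3, ITGB5 and ITGA6 second in MP replicates 1, 2 and 3. LAMC3 ranked 24, 30 and 23 of 41 in SP and 2, 8 and 5 in MP, and HSPG2 ranked 9, 12 and 11 in SP and 23, 32 and 19 in MP. The ratio of ITGA6 to its partner ITGB4 was 3.46, 1.52 and 2.34 in SP and 2.08, 1.25 and 2.39 in MP. It overlapped between the populations (exact two-sided permutation p = 0.5), although each gene rose on its own.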
